A study of Bos taurus with 6 samples.

Results

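Sterol and sphingolipid metabolism was followed through 4 genes, HMGCS1, MSMO1, SPTLC1 and GRAMD1C, in blood cells of cattle sampled before and after severe cold. They were taken as every probe set whose annotation carries one of these symbols alone, which gave 5 of 12763 probe sets and 4 of 6337 named genes. HMGCS1 has 2 probe sets and each of the other genes 1. The genes were chosen by their log2 change on these same arrays, where they were lower after cold, so their changes are a description, are given with no test and support nothing further.

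The samples were white blood cells of healthy female Sanhe heifers, which shared one cowshed and one mixed ration. The 3 after samples (numbered 1, 2 and 3) followed 3 hours outdoors at -32 °C and 15 hours in a cowshed at 5 °C, and when in this sequence the blood was drawn is not stated. The 3 before samples (numbered 4, 5 and 6) were drawn ahead of the exposure. The 6 RNA samples came from 3 of 30 animals, each sampled at both times, and the labels do not say which samples share an animal. RNA was hybridised to a one-colour Affymetrix bovine array, on which a probe set is a group of short probes read as one value, and all levels below are log2 intensities.

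Animal cells make cholesterol from acetyl-CoA through mevalonate, squalene and lanosterol, and the transcription factors of the SREBP family raise the enzymes of this route when sterol in the endoplasmic reticulum runs low. Sphingolipids start in the same membrane, where serine palmitoyltransferase joins serine to palmitoyl-CoA, and end as ceramides, sphingomyelin and glycolipids. Sphingomyelin and cholesterol meet in the plasma membrane, and carrier proteins at membrane contacts return cholesterol to the endoplasmic reticulum.

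The arrays stood apart from one another within each group. A single principal component took up 68.4% of the variance, with the after 2 and before 6 arrays at one end (scores 52.1 and 52.0) and the after 3 array at the other (-63.2). The after 2 and before 6 arrays differed by a median of 0.11 in absolute log2 value over all probe sets, against 0.82 between after 2 and after 3. The after 3 array held the lowest of the 6 values in 35.7% of all probe sets and the highest in 30%. Leukocyte genes were high throughout, with CD53 between 11.8 and 12.5 and CORO1A between 12.5 and 13.1, and the red cell gene HBB lay between 11.7 and 12.2. In the test over all probe sets (limma, adjusted p of 0.05) 0 of 12763, or 0%, passed, and the smallest adjusted p was 1.00. An unadjusted p under 0.05 was reached by 63 probe sets, with 0.462% of all probe sets lower and 0.0313% higher after cold.

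HMGCS1 encodes the cytosolic synthase that makes HMG-CoA, an early intermediate of cholesterol synthesis. Its brighter probe set read 10.15, 10.53 and 9.36 on after 1, 2 and 3, and 10.96, 10.62 and 10.74 on before 4, 5 and 6. The after arrays all lay below the before arrays, but after 2 fell only 0.09 short of before 5, so the gap between the groups was narrow. The group mean was 10.02 ± 0.60 after cold, against 10.77 ± 0.17 ahead of it (SD, n = 3 in each group), a difference of -0.76 ± 0.34 (SE of the limma model), or 1.69-fold lower. The spread was larger after cold than before it. Its other probe set was far dimmer, at 4.13, 4.68 and 4.01 after and 4.90, 4.68 and 4.77 before. There the groups touched, since the after 2 and before 5 arrays carried the same deposited intensity. Equal values on some pair of arrays were found in 124 of all probe sets. The difference was -0.51 ± 0.28, in the same direction as for the brighter probe set and smaller.

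MSMO1 encodes the methylsterol monooxygenase of the endoplasmic reticulum, which oxidises methyl groups of the sterol ring so that they can be removed on the way from lanosterol to cholesterol. It was measured at 9.74, 9.92 and 8.98 on after 1, 2 and 3 and at 10.25, 10.42 and 10.09 on before 4, 5 and 6. The groups did not overlap, with 0.17 between the highest after and the lowest before array. The means were 9.55 ± 0.49 and 10.25 ± 0.17 (SD, n = 3 in each group), a difference of -0.71 ± 0.31 (SE), or 1.63-fold lower.

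SPTLC1 encodes a subunit of serine palmitoyltransferase, which needs SPTLC1 together with a catalytic partner, SPTLC2 or SPTLC3. It read 8.32, 9.08 and 7.80 on after 1, 2 and 3 and 9.18, 9.27 and 9.36 on before 4, 5 and 6. The before arrays lay close together, at 9.27 ± 0.09, while the after arrays spread widely, at 8.40 ± 0.65 (SD, n = 3 in each group). The groups did not overlap, and the after 2 array sat 0.10 below before 4. The difference was -0.87 ± 0.35 (SE), or 1.83-fold lower.

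GRAMD1C encodes Aster-C, a protein anchored in the endoplasmic reticulum that binds cholesterol and carries it in from the plasma membrane. It was measured at 6.38, 6.39 and 5.31 on after 1, 2 and 3 and at 6.83, 7.57 and 6.61 on before 4, 5 and 6. The after 1 and after 2 arrays were alike, after 3 was lower by about a log2 unit, and before 5 stood above the other before arrays. The means were 6.03 ± 0.62 and 7.003 ± 0.51 (SD, n = 3 in each group), a difference of -0.98 ± 0.40 (SE), or 1.97-fold lower. Of the 4 genes it had the largest difference over all 6 arrays and the widest spread before cold, but without before 5 its difference was -0.69, smaller than that of SPTLC1 (-0.87) and HMGCS1 (-0.83), and without after 2 it was -1.15 against -1.22 for SPTLC1.

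**Figure D1:**
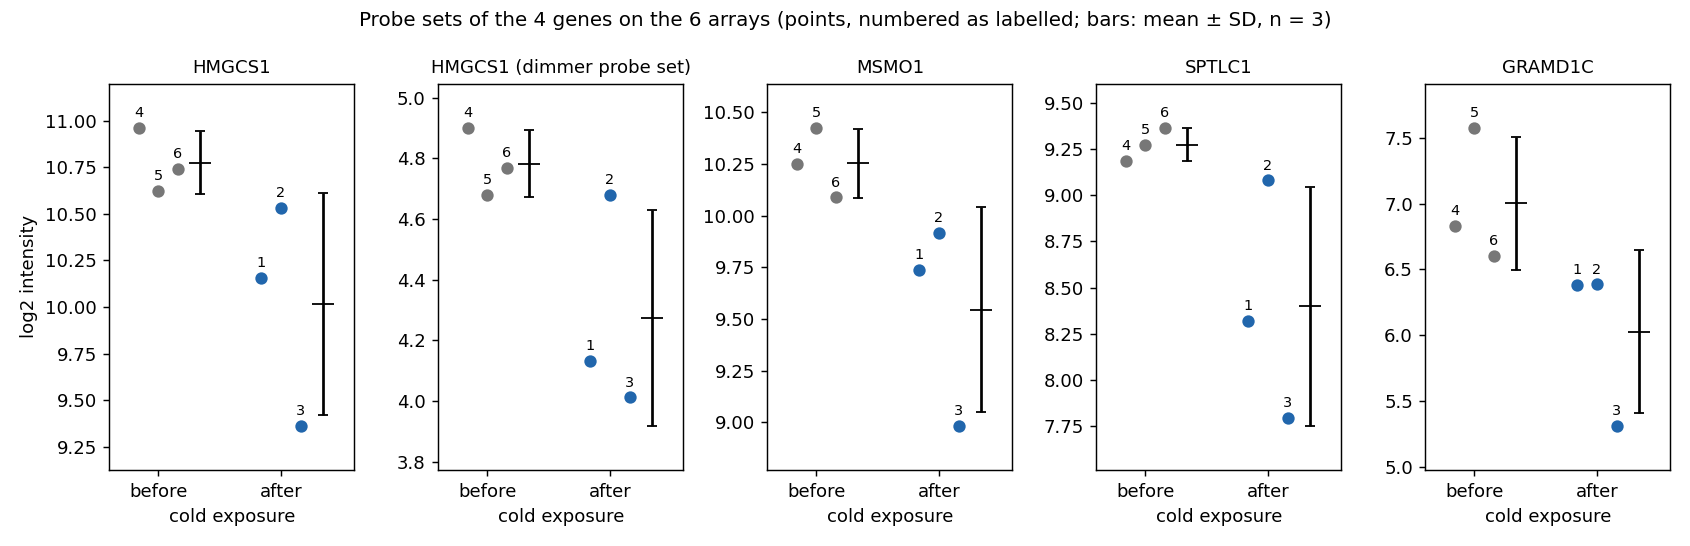
Log2 intensity of the 5 probe sets of HMGCS1, MSMO1, SPTLC1 and GRAMD1C on each array, before and after cold, with points numbered as the samples are and bars for the mean ± SD (n = 3). The after 3 array is the lowest point in each panel, and the groups are separate in all panels except the dimmer HMGCS1 probe set, where after 2 and before 5 are level at 4.68.

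In 4 of the 5 probe sets the groups did not overlap and were lower after cold, a pattern held by 2.31% of all probe sets. A difference of at least 1.5-fold downward was seen in the same number, 4 of 5, and in 6.81% of all probe sets. Both patterns come from the contrast that chose the genes, so nothing is read from these shares. In bulk blood, fewer cells of a type and less RNA per cell cannot be told apart.

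The 4 genes shared the order of the arrays within the after group. After 3 was lowest in all 5 probe sets, after 1 came next and after 2 was highest, although in GRAMD1C after 1 and after 2 were nearly level. The before arrays gave no common order, since before 4 was highest for HMGCS1, before 5 for MSMO1 and GRAMD1C and before 6 for SPTLC1. Centred on its own mean over the 6 arrays, each brighter probe set stood at -1.03 (HMGCS1), -0.92 (MSMO1), -1.04 (SPTLC1) and -1.20 (GRAMD1C) on after 3. The same probe sets stood at 0.14, 0.02, 0.24 and -0.13 on after 2, so that in 3 of the 4 genes after 2 lay above the gene's own mean. Without the after 3 array the differences became -0.43 for HMGCS1, -0.43 for MSMO1, -0.57 for SPTLC1 and -0.62 for GRAMD1C, each over 1.5 times smaller than with it. Without after 2 and before 6 together they became -1.03, -0.98, -1.17 and -1.35, all larger, and all 5 probe sets then had groups that did not overlap, as did 24.6% of all probe sets downward.

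**Figure D2:**
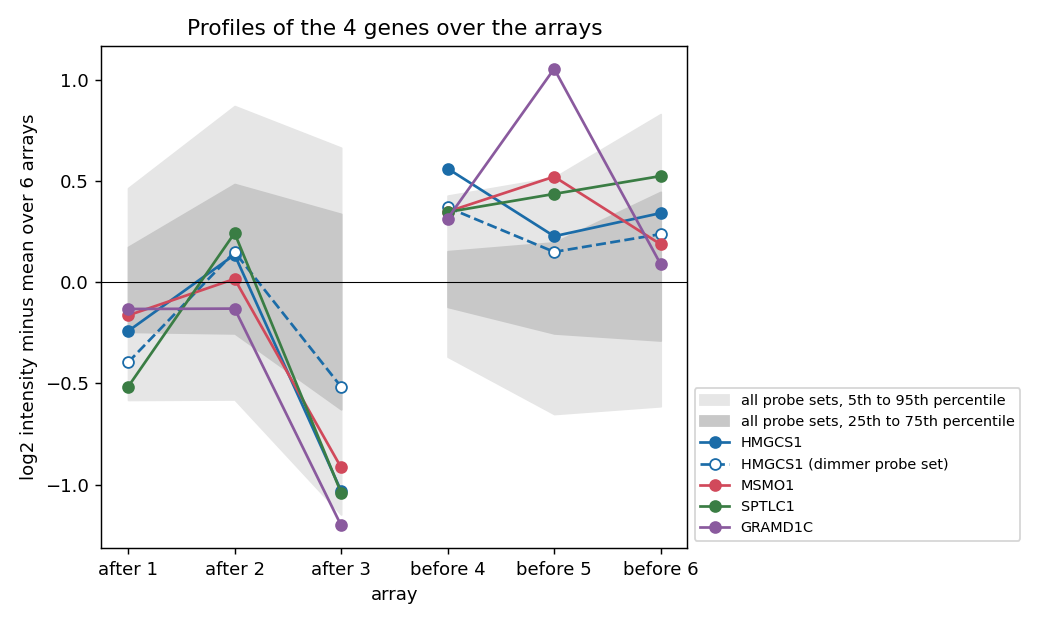
Log2 intensity minus each probe set's mean over the 6 arrays (vertical axis) for each array (horizontal axis), with lines for the 5 probe sets and grey bands for the 5th to 95th and 25th to 75th percentiles of all 12763 probe sets. The lines meet near 0 on after 2, fall to -1.20 at the lowest on after 3, and lie above 0 on each before array.

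Since the labels do not say which before and after samples share an animal, each of the 9 possible after and before pairs was compared. The pairs were not equally alike over all probe sets. The median absolute log2 difference was 0.11 for after 2 and before 6, 0.20 for after 1 and before 4, and 0.82 for after 3 and before 6. Whether this likeness marks a shared animal was not tested. All 9 differences were below 0 for MSMO1, SPTLC1, GRAMD1C and the brighter HMGCS1 probe set, and 8 of 9 for the dimmer one, as follows from groups that do not overlap. They ran from -1.59 to -0.09 for HMGCS1, from -1.44 to -0.17 for MSMO1, from -1.57 to -0.10 for SPTLC1 and from -2.26 to -0.22 for GRAMD1C. The after 2 and before 6 arrays, which were nearly alike over all probe sets, give the pair with the least other difference. There the genes differed by -0.21 (HMGCS1), -0.17 (MSMO1), -0.28 (SPTLC1) and -0.22 (GRAMD1C), and the 5th percentile of all probe sets was -0.27. Both arrays belong to the contrast that chose the genes, so this is again a description.

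The rest of the pathway was taken from 6 lists with 137 genes, of which 74 were measured and 70 are other than the 4 described here. Of these 70, 0 passed the test in either direction (limma, adjusted p over all probe sets), and 0 had an unadjusted p under 0.05. A lower mean after cold was found for 29 of them, or 41.4%, against 43.7% of all 6337 named genes, and their median difference was 0.07 against 0.05 over those genes. Groups that did not overlap were seen for 3 in the downward direction, GGPS1, LIPA and ASAH1, and for 1 upward, NPC1. Over the 6337 named genes these shares were 3.00% and 2.02%, and over all probe sets 2.31% and 2.07%. Single arrays weighed on these values, since 67 of the 70 moved by over 1.5 times or turned sign when 1 array was left out, and 40 turned sign. Each of the 4 described genes had the lowest value in its own list. Their choice for being lower after cold made this likelier, so nothing is read from it.

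**Figure D3:**
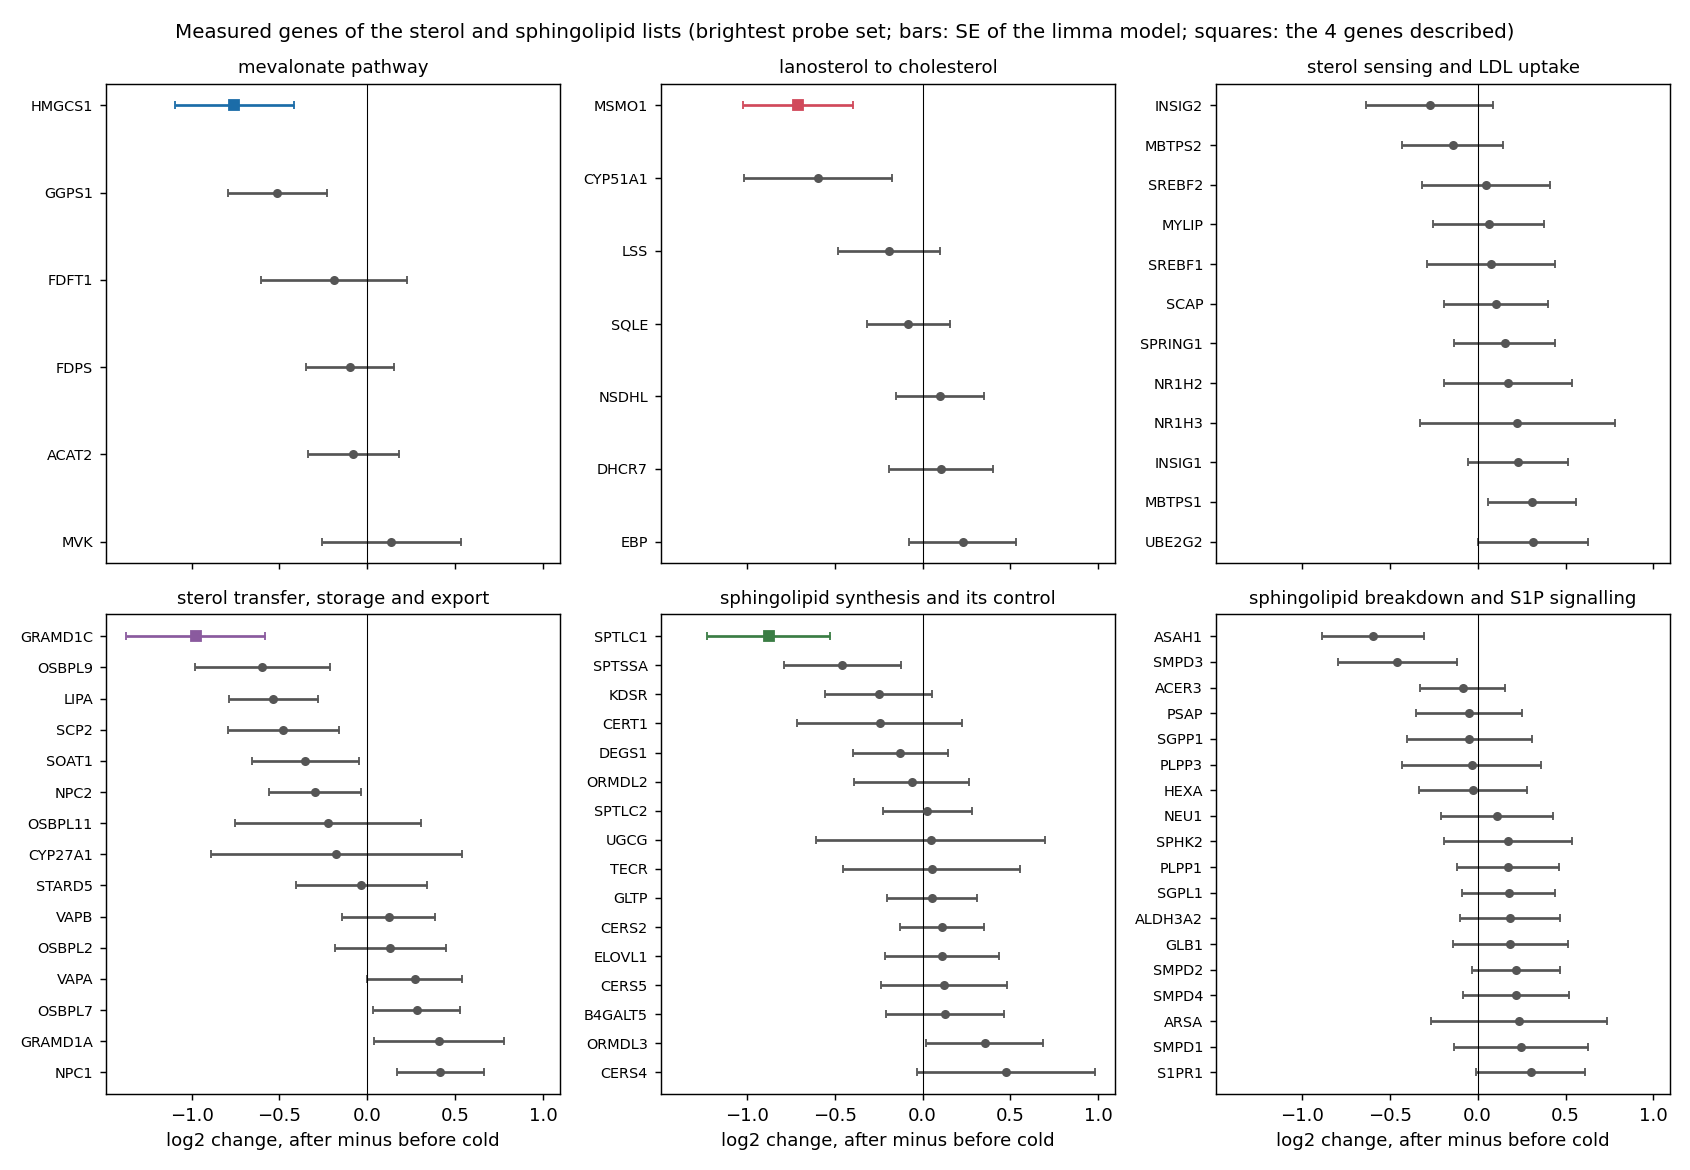
Log2 change, after minus before cold (horizontal axis), of each measured gene of the 6 lists, by its brightest probe set, with bars for the SE of the limma model and squares for the 4 described genes. The squares lie at -0.71 to -0.98, at the low end of 4 panels, while the genes of sterol sensing and LDL uptake lie between -0.27 and 0.31.

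In the mevalonate pathway, from acetoacetyl-CoA to squalene, 6 of 10 listed genes were measured and 5 had a lower mean after cold (median -0.14, or -0.10 for the 5 genes other than HMGCS1). GGPS1, which makes the geranylgeranyl chain that anchors small GTPases, read 7.40, 7.60 and 6.93 after and 7.70, 8.04 and 7.73 before, a difference of -0.51 ± 0.28 (SE). Its after 3 value was also the lowest of the 6. ACAT2, the thiolase one step ahead of HMGCS1, differed by -0.08 ± 0.26 and FDPS, which makes farnesyl diphosphate, by -0.10 ± 0.25. FDFT1, which makes squalene, differed by -0.19 ± 0.42, with another probe set at -0.13. The mevalonate kinase MVK differed by 0.14 ± 0.40. Signs of ACAT2, FDPS and FDFT1 turned without the before 4 array, and the median of the list then became 0.04. The sign of FDFT1 also turned without after 2 (0.02). MVK turned to a lower mean without after 1 (-0.13) and without before 6 (-0.10).

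From squalene to cholesterol, 7 of 13 listed genes were measured, 4 lower and 3 higher (median -0.08, or 0.01 for the 6 other than MSMO1). CYP51A1, the demethylase that acts on lanosterol ahead of MSMO1, read 8.30, 9.17 and 7.49 after and 8.71, 8.82 and 9.21 before. The difference was -0.59 ± 0.42. Here the groups overlapped, because after 2 lay next to before 6. Without after 3 the CYP51A1 difference was -0.18, and without after 2 it was -1.02. NSDHL, the dehydrogenase that works on the product of MSMO1, differed by 0.10 ± 0.25 and was highest on after 3, at 8.80. The epoxidase SQLE (-0.08 ± 0.24), the lanosterol synthase LSS (-0.19 ± 0.29), the reductase DHCR7 (0.10 ± 0.29) and the isomerase EBP (0.23 ± 0.30) made up the rest. Without the after 3 array NSDHL and DHCR7 turned to lower means and EBP differed by only 1.2e-05. The list then had 1 gene higher and 6 lower, with a median of -0.15.

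None of the measured regulators passed the test. Of 17 listed genes of sterol sensing and LDL uptake 12 were measured, 10 with a higher and 2 with a lower mean (median 0.13), and 6 with a higher mean without after 3 or without before 6. SREBF2, the SREBP gene most tied to cholesterol enzymes, averaged 9.35 ± 0.50 after cold, against 9.30 ± 0.49 ahead of it (SD, n = 3 in each group). SREBF1 differed by 0.08 ± 0.36 (SE) and SCAP, which escorts SREBP out of the endoplasmic reticulum, by 0.11 ± 0.30. INSIG1, which retains that escort when sterol is plentiful and is itself an SREBP target, differed by 0.23 ± 0.28. Its relative INSIG2 differed by -0.27 ± 0.36, with other probe sets at -0.38 and -0.61. The SREBP proteases MBTPS1 and MBTPS2 differed by 0.31 ± 0.25 and -0.14 ± 0.29. The ubiquitin-conjugating enzyme UBE2G2 differed by 0.31 ± 0.31, with another probe set at 0.18.

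Among 28 genes of sterol transfer, storage and export 15 were measured, 6 higher and 9 lower (median -0.18, or -0.11 for the 14 other than GRAMD1C). GRAMD1A, a relative of GRAMD1C with the same kind of cholesterol-binding domain, read 8.37, 7.90 and 8.88 after and 7.94, 8.53 and 7.47 before, a difference of 0.41 ± 0.37. It was highest on after 3, where GRAMD1C was lowest, and the difference was 0.16 without after 3 and 0.15 without before 6. LIPA, the lysosomal lipase that frees cholesterol from its esters, read 8.96, 9.28 and 8.83 after and 9.68, 9.49 and 9.495 before (-0.54 ± 0.25), with no overlap. NPC1, which exports that cholesterol from the lysosome, was at 7.45, 7.36 and 7.45 after and 6.90, 6.87 and 7.26 before (0.41 ± 0.25), while its partner NPC2 differed by -0.30 ± 0.26. The oxysterol-binding relative OSBPL9 differed by -0.60 ± 0.38, with another probe set at -0.33, and its kin OSBPL7 by 0.28 ± 0.25. The list's median was 0.0032 without before 5 and -0.0032 without before 4.

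Of 32 genes of sphingolipid synthesis and its control 16 were measured, 10 higher and 6 lower (median 0.05, and also 0.05 for the 15 other than SPTLC1). SPTLC2, which carries the cofactor of the enzyme, read 8.39, 8.49 and 8.58 after and 8.36, 8.72 and 8.30 before, a difference of 0.03 ± 0.25. SPTSSA, a small subunit that activates the pair, read 8.74, 9.60 and 8.73 after and 9.10, 9.66 and 9.67 before (-0.46 ± 0.33), with groups that overlapped. ORMDL2 and ORMDL3, inhibitors of the enzyme, differed by -0.06 ± 0.33 and 0.35 ± 0.33. Downstream, the reductase KDSR differed by -0.25 ± 0.31, the ceramide carrier CERT1 by -0.24 ± 0.47, the ceramide synthase CERS4 by 0.47 ± 0.51 (0.0085 without after 3) and the galactosyltransferase B4GALT5 by 0.13 ± 0.34. The median of this list turned below 0 without after 2, after 3, before 5 or before 6, and without after 2 and before 6 together.

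In sphingolipid breakdown and signalling by sphingosine 1-phosphate 18 of 37 genes were measured, 11 higher and 7 lower (median 0.17). ASAH1, the acid ceramidase of the lysosome, read 8.57, 8.94 and 8.08 after and 9.16, 9.17 and 9.04 before (-0.59 ± 0.29), so that its before arrays were close together and after 3 was lowest, as for SPTLC1. The sphingomyelinases SMPD3 and SMPD1 differed by -0.46 ± 0.34 and 0.25 ± 0.38, and the alkaline ceramidase ACER3 by -0.08 ± 0.24, with another probe set at -0.44. The receptor S1PR1 differed by 0.30 ± 0.31 (0.05 without before 5), with another probe set at 0.72 ± 0.59. In that other probe set before 5 read 4.69, against 6.97 on before 4 and 6.79 on before 6. ARSA, a sulfatase of glycolipids, differed by 0.23 ± 0.50 and SGPL1, the lyase that ends the route, by 0.18 ± 0.27. Without after 3 this list had 7 of 18 higher and a median of -0.03.

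Log2 ratios show where genes of one enzyme, family or step differed from each other between arrays. Each ratio was centred on its mean over the 6 arrays, for pairs chosen after their values were seen and therefore with no test. SPTLC1 over SPTLC2 stood at -0.43, 0.22 and -1.15 after and 0.46, 0.19 and 0.70 before, with after 2 slightly above before 5. SPTLC1 over SPTSSA was flatter, from -0.52 to -0.01 after and from 0.02 to 0.50 before. GRAMD1C over GRAMD1A had the widest swing, from -1.90 on after 3 to 0.80 on before 6, and its groups did not overlap. MSMO1 over NSDHL ran from -1.22 to 0.07 after and from 0.33 to 0.51 before, whereas MSMO1 over CYP51A1 overlapped between the groups, with means of -0.06 ± 0.42 and 0.06 ± 0.40 (SD, n = 3 in each group). HMGCS1 over GGPS1 and HMGCS1 over FDPS overlapped as well, with differences of -0.25 and -0.66 between the group means. A ratio of this kind shows an unequal difference and not which gene moved. The described gene in each ratio was chosen for being lower after cold, so groups that do not overlap are partly built in. How often ratios of other genes separate the groups was not worked out, and nothing is read from these separations.

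**Figure D4:**
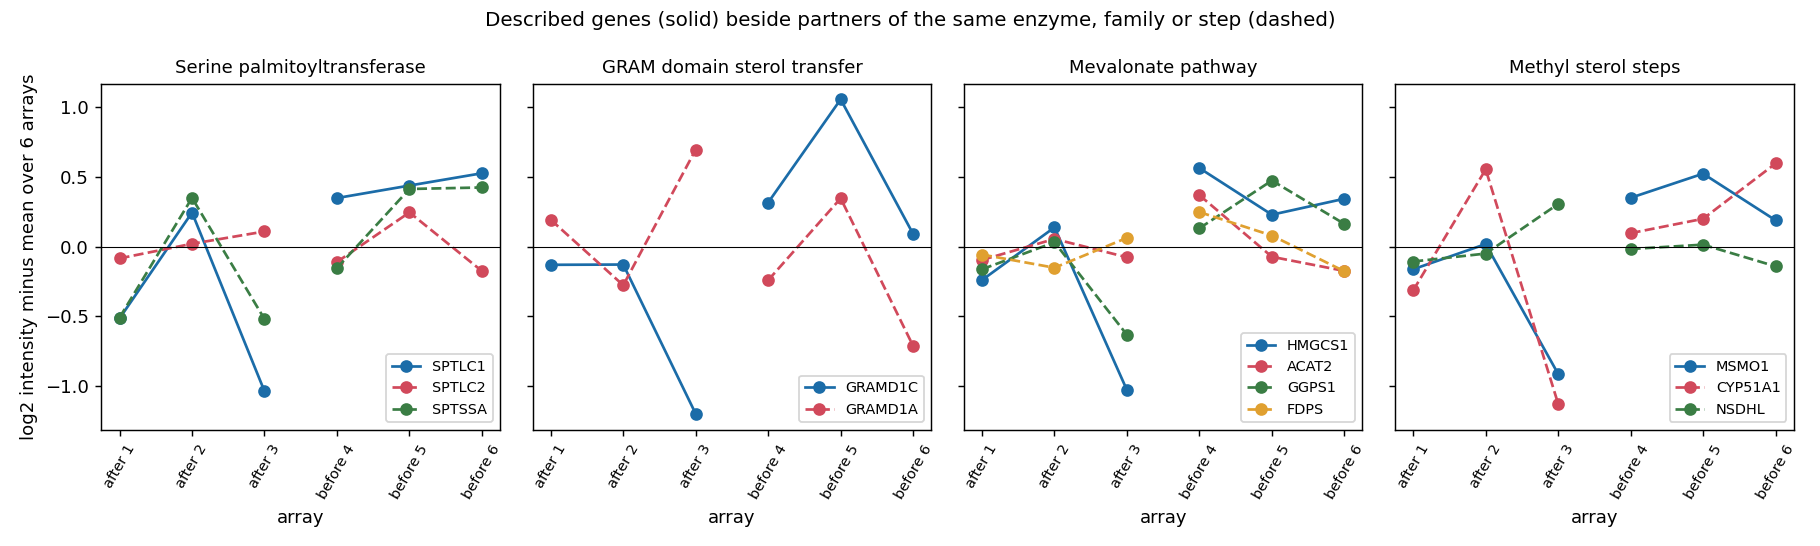
Log2 intensity minus the gene's mean over the 6 arrays (vertical axis) by array (horizontal axis), for each described gene (solid) and partners of its enzyme, family or pathway (dashed). On after 3 SPTLC1, GRAMD1C, HMGCS1 and MSMO1 lie between -0.92 and -1.20, near CYP51A1, while GRAMD1A and NSDHL are at their highest there.

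Likeness between genes was measured as the root mean square difference of centred log2 values over the 6 arrays. The 4 genes were chosen for falling on these arrays, which fixes much of their likeness to one another, so nothing is read from the distances between them. HMGCS1 lay 0.18 from MSMO1, 0.19 from SPTLC1 and 0.39 from GRAMD1C, and 0.24 separated its 2 probe sets. MSMO1 lay 0.23 from SPTLC1 and 0.26 from GRAMD1C, and SPTLC1 lay 0.38 from GRAMD1C. The 5 nearest genes to each of the 4 were closer to it than the other described genes. The 5 nearest of 6336 genes to HMGCS1 were ANKRD49 (0.10), the CCR4-NOT subunit CNOT2, TRIP4, ABITRAM and the interferon-induced GTPase GBP1 (0.12). Those to MSMO1 were the nucleolar protein NIFK (0.05), the RNA polymerase I factor TAF1B, ZCCHC17, the ribosomal RNA methylase DIMT1 and EMC3, of the ER membrane complex (0.09). SPTLC1 was nearest to the snRNA export adaptor PHAX (0.05), the dynein chain gene DYNC1I2, ANP32E, the nuclear pore gene NUP54 and the helicase DDX52 (0.09). GRAMD1C was nearest to the mitochondrial ribosomal gene MRPL30 (0.09), the receptor CALCRL, the ER isomerase FKBP14, CLHC1 and CYB5A (0.18), which encodes cytochrome b5, an electron donor in sterol and fatty acid oxidation.

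Markers of the blood cell types moved among the arrays as well, and their part in these values was not tested. The summed linear intensity of 6 of 9 monocyte genes ran from 3168 to 5464 after and from 2942 to 5045 before, and was highest on after 3 and next on before 5. That of 8 of 10 T cell genes ran from 12159 to 17388 after and from 12654 to 19713 before, with its lowest value on after 3. The 5 of 10 neutrophil genes measured ran from 19261 to 25179 after and from 16637 to 25194 before, the 4 of 8 B cell genes from 9563 to 9754 and from 9028 to 10476, and the 6 of 8 NK and cytotoxic genes from 2212 to 4880 and from 2175 to 4093. The 2 of 8 eosinophil, basophil and mast cell genes, ALOX15 and CCR3, ran from 470 to 694 after and from 685 to 1006 before, lowest on after 3, and the 2 of 8 platelet genes from 7583 to 7855 and from 7722 to 10324, highest on before 5. The 3 of 10 red cell genes ran from 4359 to 5127 and from 3888 to 5071, and the 6 of 6 general leukocyte genes from 28375 to 30766 and from 26561 to 30884. In each of these lists the sums of the groups overlapped. Of single markers, the scavenger receptor gene MSR1 and the granzyme gene GZMB were lower after cold with no overlap. They differed by -0.66 ± 0.28 and -0.59 ± 0.27 (SE), and neither passed the test. Groups lower with no overlap were seen in 3% of named genes and 2.31% of all probe sets. MSR1 was dim, between 4.04 and 5.21. Its monocyte list had 3 genes higher and 3 lower, and the NK and cytotoxic list of GZMB had 4 higher and 2 lower.

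**Figure D5:**
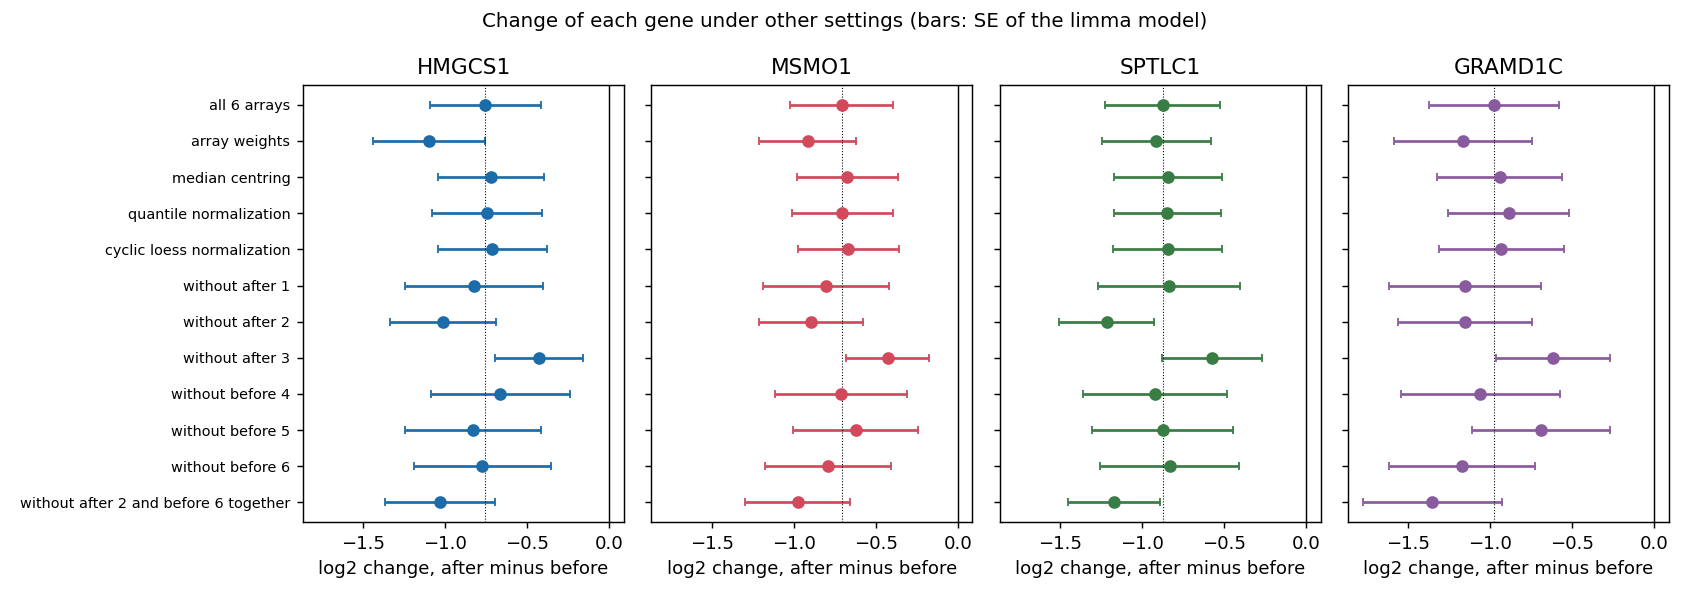
Log2 change, after minus before cold (horizontal axis), of HMGCS1, MSMO1, SPTLC1 and GRAMD1C under each setting (rows), with bars for the SE of the limma model and a dotted line at the value from all 6 arrays. Each value stays below 0, which leaving out arrays cannot change where the groups do not overlap. The smallest changes, from -0.43 to -0.62, come without the after 3 array.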

How the data were processed

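The 6 arrays carry linear probe set intensities deposited by the authors. Per the submitters' processing notes GCOS and RMA were used, with no version given. Whether probe sets were filtered, and on which genome build they were designed, is not given in the sources used here. Array medians ran from 7.25 to 7.49 on the log2 scale. The log2 of the deposited intensities was used with no further normalization, pseudocount or filter. Gene names come from the platform annotation (8125 with 1 symbol, 56 with several, 4582 with none), and a gene was represented by its brightest probe set. All 12763 probe sets were fitted with limma 3.58.1 in R 4.3.3, after minus before, two-sided, with no block, Benjamini-Hochberg adjustment and a threshold of 0.05, after a test on simulated data. The number of arrays limits the precision, and detection calls were not used. The genes and lists were chosen with earlier results of these data known. Besides the 4 genes, the text draws on the 3 lowest and 3 highest genes of each pathway list, a fixed set of partners and the 5 nearest genes. A few further list members are named after their values were seen.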

Additional observations from a re-analysis of the deposited data

How the results depend on the processing

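The 89 values of the 4 genes under other settings (array weights, 3 further normalizations, each array left out, after 2 and before 6 left out together, the mean of probe sets, and a block for each of 6 matchings) kept their direction and moved by less than the SD between replicates. Much of this was fixed in advance. A block cannot change the difference in this balanced design, nor can the mean of probe sets for a gene with 1 probe set. Where the groups do not overlap, leaving out arrays cannot turn the sign. The genes were also chosen on this contrast, so nothing is read from this steadiness. Leaving out each array gave -1.01 to -0.43 for HMGCS1, -0.89 to -0.43 for MSMO1, -1.22 to -0.57 for SPTLC1 and -1.17 to -0.62 for GRAMD1C. Which after sample belongs to which before sample is not labelled, so the true pairing is unknown. With each of the 6 possible matchings as a block the SE ran from 0.22 to 0.43 for HMGCS1, 0.25 to 0.41 for MSMO1, 0.24 to 0.42 for SPTLC1 and 0.28 to 0.44 for GRAMD1C. The 0 probe sets past the threshold stayed 0 in each limma fit and became 63 with an unadjusted p under 0.05, with or without a 1.5-fold minimum. That 63 ran from 5 without after 3 to 1787 without after 2, and was 662 with array weights, 49 without the dimmest 25% of probe sets and 27 without the dimmest 50%. It also hung on the unknown pairing. With a block it ran from 24 (matching 1-5, 2-4, 3-6) to 1168 (matching 1-4, 2-6, 3-5). Of 108 medians of the pathway lists under other settings, 103 moved by less than the SD between replicates and 9 turned sign. The blocks among these settings cannot change a median, so these counts make the medians look steadier than they are. The mevalonate median was -0.52 with array weights. Leaving out each array gave medians of -0.35 to 0.042 for that list, -0.28 to 0.0032 for sterol transfer, storage and export and -0.057 to 0.074 for sphingolipid synthesis. The cause was not tested. No measure of background was used, so signal over background is unknown.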
